A study of Mus musculus with 14 samples.

Results

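Neurotrophins are secreted growth factors that support the survival of neurons and the strength of their synapses. The genes described here are 2 neurotrophins, Bdnf (brain-derived neurotrophic factor) and Ntf3 (neurotrophin-3), and 4 receptors: Ntrk2 (TrkB), Ntrk3 (TrkC), Ngfr (the p75 receptor) and Sort1 (sortilin). They were chosen by gene symbol, and all 6 were found among the 18722 annotated genes with a value in any library.

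BDNF acts through the receptor tyrosine kinase TrkB and neurotrophin-3 mainly through TrkC. Both Trk receptors are also made in truncated forms that bind the ligand but lack the kinase domain. The uncleaved precursors bind p75 together with sortilin, and sortilin also sorts BDNF into the secretory pathway. In the hippocampus, BDNF is made by excitatory neurons, and truncated TrkB is abundant in astrocytes.

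RNA of the hippocampus of C57BL6 mice, labelled as 30-day old, was sequenced in 14 libraries. The mice were wild type or KMT2D+/bGeo, heterozygous for an altered allele of the histone H3K4 methyltransferase gene Kmt2d and used as a model of Kabuki syndrome. TAK-418 inhibits LSD1, an enzyme encoded by Kdm1a that takes methyl marks off histone H3K4. Mice were given it at 1 mg/kg/day in methylcellulose, or methylcellulose alone. Dosing was by mouth for 2 weeks from the age of 2 weeks. Vehicle libraries number 3 wild type and 3 mutant, and TAK-418 libraries 5 wild type and 3 mutant. The 5 exceed the number of animals per group that the series' design text gives, so some of them may share an animal. No label names litters or says whether a library is 1 mouse, so p-values measure only the spread between these libraries. In bulk tissue, fewer cells of a type and less RNA per cell cannot be told apart.

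Relative depth, read from the smallest step of the deposited values, was highest in wild-type TAK-418 replicate 1, at 167 M against 35.2 M to 60.1 M elsewhere (13 libraries). Kmt2d was at 13.8 to 14.2 scaled units in vehicle wild types and 10.6 to 14.4 in vehicle mutants, and at 12.5 to 18.0 and 9.34 to 14.6 in the treated wild types and mutants. These ranges overlap between genotypes, and Kdm1a lay between 29.9 and 35.8 in all 14. A scaled unit is the assembled abundance per transcript length and library total, summed over a gene's transcripts and divided by a library factor between 0.849 and 1.07. Markers of the hippocampus (pan-neuronal, dentate granule, CA1, CA2 and CA3 lists) were above 0 in every library. The summed level of 11 choroid plexus markers ran from 19.0 to 6520, highest in wild-type vehicle replicate 3 (6520), followed by mutant vehicle replicate 1 (5087).

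None of the 6 genes differed between groups past the threshold (limma, Benjamini-Hochberg adjusted p under 0.05 over 16569 genes) in any of the 7 comparisons. The share of all tested genes called was 0% for the genotype effect under vehicle, 0.0121% for the genotype effect under TAK-418, and 0.00604% for the drug effect in wild types. It was 0.00604% for the drug effect in mutants, for treated mutants against vehicle wild types and for the interaction of genotype and drug. It was 0% where vehicle mutants were set against treated wild types. The members' count of 0 therefore stood at the background of these comparisons. One member value had an unadjusted limma p under 0.05, that of Ngfr for the drug effect in mutants, where 4.39% of all tested genes had one. No other member value in the 7 comparisons did.

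**Figure D1:**
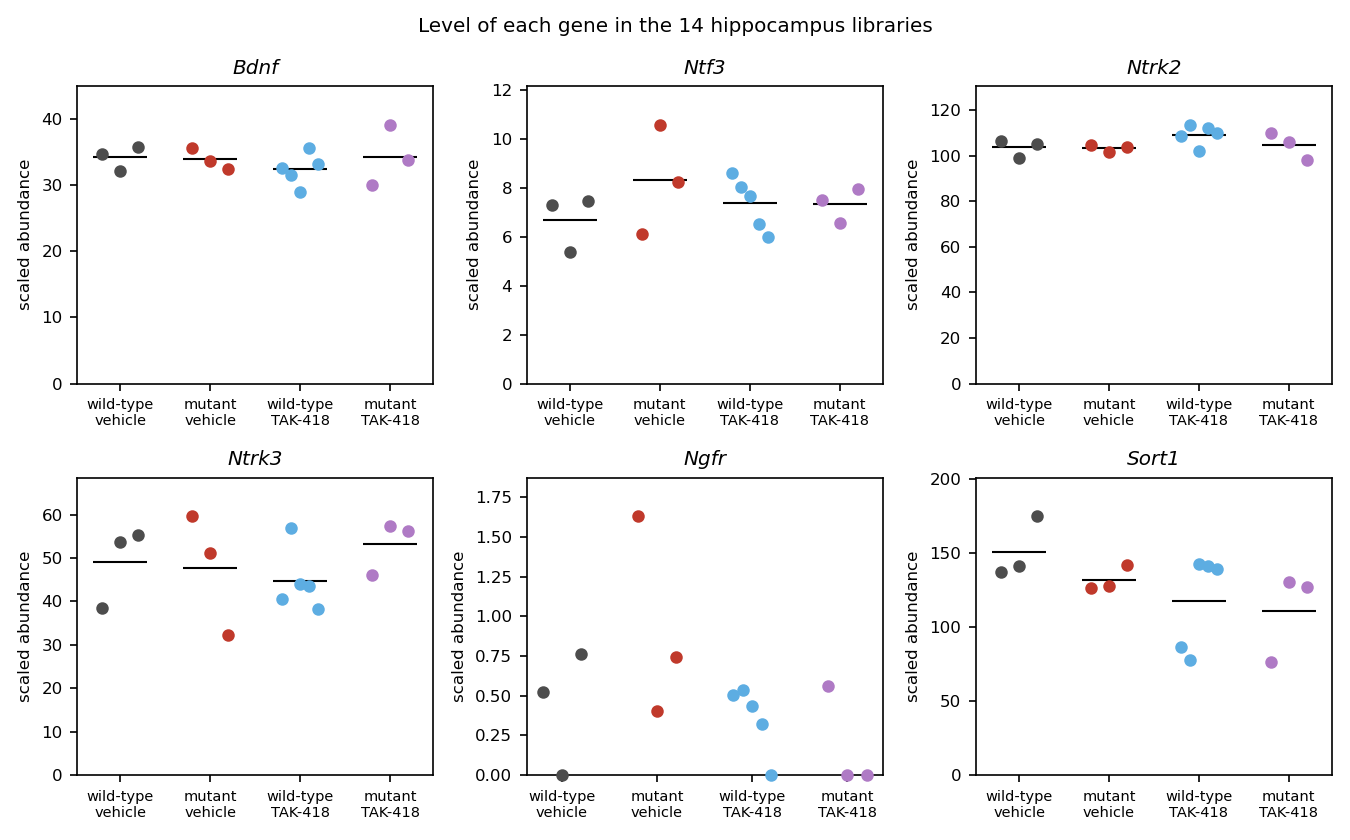
Level of each gene (scaled abundance, linear axis from 0) in every library, by group. Each point is 1 library, and the black line is the group mean, left out for Ngfr, which is listed at 0 in 4 libraries. The groups overlap in each panel, save treated mutants and vehicle wild types for Sort1, and the points of Sort1 and Ntrk3 lie far apart within groups.

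The order of the median levels over the 14 libraries was Sort1 (134), Ntrk2 (106), Ntrk3 (48.6), Bdnf (33.4), Ntf3 (7.46) and Ngfr (0.470), all in scaled units per transcript length. Neighbours kept this order in 14 of 14 libraries for Ntrk2 over Ntrk3, for Bdnf over Ntf3 and for Ntf3 over Ngfr. Ntrk3 was above Bdnf in 13 libraries and Sort1 above Ntrk2 in 11, so those 2 pairs of neighbours overlap across libraries. Among genes with a median above 0, 95.9% lay below Sort1, 94.6% below Ntrk2, 86.4% below Ntrk3, 79.5% below Bdnf, 42.5% below Ntf3 and 5.02% below Ngfr.

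The genes also differed in how closely libraries of a group resembled each other. The within-group SD on the log2 scale was 0.060 for Ntrk2, and 9.44% of the genes listed in every library had a smaller one. It was 0.12 for Bdnf, near the median gene at 0.13. Ntf3 had 0.23, Ntrk3 0.29 and Sort1 0.35, the last above 87.1% of genes. The size of the difference that could be seen therefore varies between the members.

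Bdnf, on the plus strand of chromosome 2 (chr2:109674700-109727007, GRCm38), encodes the ligand of TrkB. Its several promoters each have their own first exon, spliced to a shared coding exon, and the promoter before exon IV responds to neuronal activity through a calcium and cAMP response element. The 250 bases before the starts of first exons I and IV (RefSeq, GRCm38.p6, plus strand) are shown. Transcripts from both exons were assembled in all 14 libraries. No window was matched for exon VI, also assembled in all 14, or for exon II, assembled in 13. Capitals mark CGTCA or its reverse complement TGACG, the core letters of that element, searched on both strands.
Bdnf exon I, chr2:109674450-109674699: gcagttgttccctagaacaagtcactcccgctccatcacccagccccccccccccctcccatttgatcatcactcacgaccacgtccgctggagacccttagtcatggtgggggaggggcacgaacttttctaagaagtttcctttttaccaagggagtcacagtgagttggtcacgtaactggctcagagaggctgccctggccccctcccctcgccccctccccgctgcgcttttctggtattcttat
Bdnf exon IV, chr2:109692186-109692435: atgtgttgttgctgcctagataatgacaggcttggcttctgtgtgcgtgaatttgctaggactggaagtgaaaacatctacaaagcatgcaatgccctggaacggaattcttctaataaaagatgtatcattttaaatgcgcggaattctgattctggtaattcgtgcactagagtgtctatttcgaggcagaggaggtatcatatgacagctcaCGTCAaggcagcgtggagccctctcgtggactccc
The window of exon IV holds 1 such match, inside the longer motif TCACGTCA, and that of exon I holds none. Of 32851 promoter windows of this length, 17.8% hold CGTCA or TGACG and 0.350% hold TCACGTCA or its reverse complement. A match is a description of the letters in the window.

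Bdnf was at 34.7, 32.1 and 35.8 scaled units in wild-type vehicle libraries and at 35.6, 33.7 and 32.4 in mutant vehicle libraries. It was at 32.5, 31.5, 29.0, 35.6 and 33.2 in wild-type TAK-418 libraries and at 30.0, 39.1 and 33.8 in mutant TAK-418 libraries. All 4 groups overlap, and both the highest and the second lowest library are treated mutants. The vehicle means were 34.2 ± 1.87 (SD, n = 3) in wild types and 33.9 ± 1.61 (SD, n = 3) in mutants, and the TAK-418 means 32.4 ± 2.43 (SD, n = 5) and 34.3 ± 4.58 (SD, n = 3). Mutants minus wild types, the log2 difference was -0.011 ± 0.092 (SE) under vehicle, with a 95% interval of -0.21 to 0.19, and 0.077 ± 0.082 under TAK-418. The drug difference was -0.079 ± 0.082 in wild types and 0.0085 ± 0.092 in mutants. The adjusted limma p was 0.79 or more for each of these 4.

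First exons were unequal. Transcripts starting at exon VI made up 44.9% to 59.2% of Bdnf (median 52.7%), and those starting at exon IV 13.5% to 27.7% (median 24.1%). Exon I held 5.64% to 15.6% and exon II 0% to 17.8%, with medians of 11.4% and 12.6%. Exon VI was the highest in 14 of 14 libraries, and exon IV was above exon I in 14 and above exon II in 13. Exon V was assembled in mutant vehicle replicate 3 only, at 2.64 scaled units, and exons III, VII and VIII (numbered in order along the annotation) in no library.

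Exon IV, an activity-responsive start, was at 9.62, 7.91 and 7.67 scaled units in wild-type vehicle and at 7.85, 7.65 and 6.84 in mutant vehicle libraries. It was at 8.42, 8.43, 6.96, 9.57 and 9.13 in wild-type TAK-418 and at 7.23, 9.18 and 4.57 in mutant TAK-418 libraries. The lowest value is that of mutant TAK-418 replicate 3, and the ranges of the groups overlap. Exon I was at 1.83 to 4.37 in mutant vehicle and 3.51 to 6.09 in mutant TAK-418 libraries, and at 3.20 to 3.54 and 3.42 to 4.43 in the corresponding wild types. Wild-type TAK-418 replicate 2, which has no transcript starting at exon II, has 1 that starts at exon I and also holds a later first exon, at 1.73 scaled units. These values are a description, with no test.

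**Figure D2:**
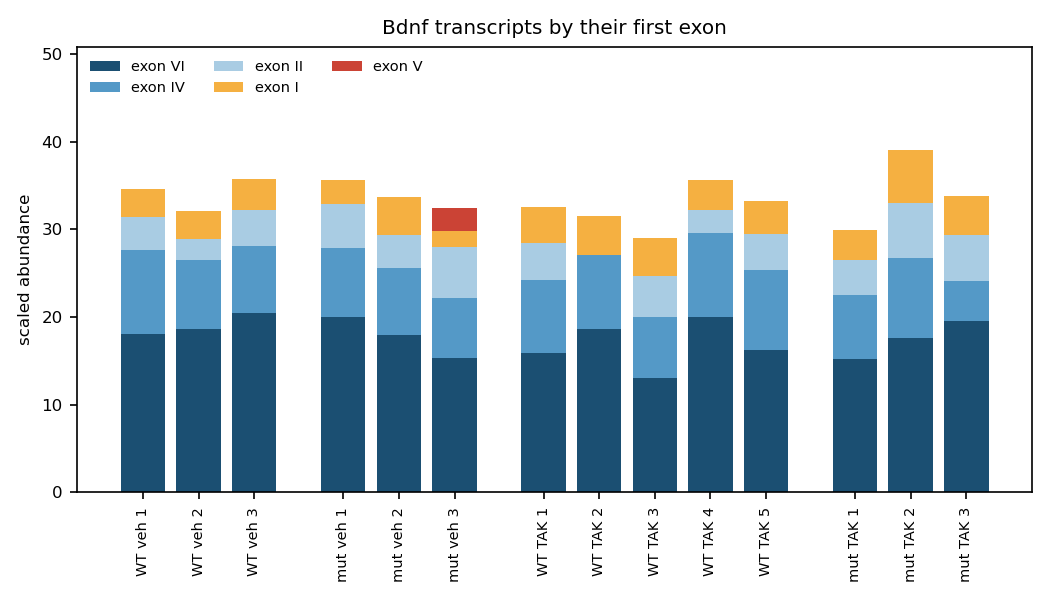
Bdnf scaled abundance (linear axis from 0) in each library, stacked by the first exon of the assembled transcript; WT is wild type, mut is mutant, veh is vehicle and TAK is TAK-418. Exon VI is the largest part of every bar, and exon V appears in mutant vehicle replicate 3 only.

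All 64 assembled Bdnf transcripts ended 8 to 247 bases after the stop codon. The annotation reaches 2858 bases after it, the long 3' end of Bdnf. In the authors' deposited tables, which hold 1 value per group, Bdnf was at 13.6 to 15.6 FPKM. The 2 scales are thus not to be compared for this gene. Whether the shorter assembled end accounts for the higher assembled values was not tested.

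Ntf3 (chr6:126101412-126166910, minus strand) encodes neurotrophin-3, which in the hippocampus is known from dentate granule cells. It was at 7.28, 5.36 and 7.44 scaled units in wild-type vehicle libraries, and at 6.12, 10.6 and 8.22 in mutant vehicle libraries. It was at 8.58, 8.04, 7.68, 6.51 and 6.0 in wild-type TAK-418 libraries and at 7.48, 6.54 and 7.94 in mutant TAK-418 libraries. Mutant vehicle replicate 2 is the highest and wild-type vehicle replicate 2 the lowest of the 14, and mutant vehicle replicate 1 lies within the wild-type vehicle range.

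Mutants minus wild types, the log2 difference under vehicle was 0.26 ± 0.18 (SE; 95% interval -0.13 to 0.65, limma adjusted p = 1.00), and -0.0012 ± 0.16 under TAK-418. The first of these was 0.087 without mutant vehicle replicate 2, 0.13 without wild-type vehicle replicate 2, 0.44 without mutant vehicle replicate 1, and 0.51 without the 2 libraries highest in choroid plexus markers. The drug difference was 0.12 ± 0.16 in wild types and -0.14 ± 0.18 in mutants. The summed level of 8 dentate granule markers was 153 to 161 in vehicle wild types and 164 to 175 in vehicle mutants, and 176 to 198 and 176 to 189 in the treated wild types and mutants. Its part in the Ntf3 values was not tested. In the authors' deposited tables Ntf3 was at 5.87 FPKM in wild-type vehicle and 7.56 in mutant vehicle, with p = 0.0353 and q = 0.90.

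Transcripts beginning in the downstream first exon of Ntf3 were assembled in 13 libraries, and in mutant TAK-418 replicate 2 the only transcript began in an exon that is not in the annotation. The upstream first exon was used in 4 libraries, at 1.24 and 0.397 scaled units in mutant vehicle replicates 2 and 3 and at 1.88 and 0.351 in wild-type TAK-418 replicates 3 and 4. It thus occurred in both genotypes and both treatments, at 4.83% to 24.5% of Ntf3.

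Ntrk2 (chr13:58806569-59133970, plus strand) encodes TrkB, the BDNF receptor. Its truncated form T1 leaves the kinase form after the exon at chr13:58878163-58878262 and ends in a short coding tail of its own. The 2 paths are shown because the receptor's 2 products part at this junction (GENCODE M21, GRCm38). Lower case is the end of the shared exon, and capitals are the T1 tail through its stop codon (chr13:58932023-58932060) or the first 60 bases of the next exon of the kinase form (chr13:58985802-58985861).
TrkB T1: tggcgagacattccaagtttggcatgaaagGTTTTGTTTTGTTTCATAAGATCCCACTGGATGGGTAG
TrkB kinase form: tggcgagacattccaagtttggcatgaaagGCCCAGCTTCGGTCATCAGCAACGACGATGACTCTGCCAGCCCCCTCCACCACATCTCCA

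Total Ntrk2 was the least variable of the 6. It was at 107, 99.2 and 105 scaled units in wild-type vehicle libraries and at 105, 102 and 104 in mutant vehicle libraries. It was at 109, 114, 102, 112 and 110 in wild-type TAK-418 libraries and at 110, 106 and 98.0 in mutant TAK-418 libraries. All groups overlap, and 4 of 5 treated wild types lie above the 3 vehicle wild types. Mutants minus wild types, the log2 difference under vehicle was -0.0026 ± 0.051 (SE), with a 95% interval of -0.11 to 0.11, and -0.063 ± 0.046 under TAK-418. The drug difference was 0.076 ± 0.046 in wild types (95% interval -0.025 to 0.18, limma adjusted p = 0.676) and 0.015 ± 0.051 in mutants. The authors' deposited tables gave Ntrk2 77.2 to 81.2 FPKM, with a q of 0.89 or more.

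Both receptor forms were assembled in all 14 libraries. The truncated form was above the kinase form in 14 of 14, at 55.3 to 65.5 scaled units against 41.2 to 51.2. All 19 truncated Ntrk2 transcripts ended in the T1 last exon (chr13:58932023-58937027), and the annotation holds 5 truncated transcripts. The kinase form's share, over the sum of both forms, was 43.4%, 41.6% and 42.8% in wild-type vehicle and 40.1%, 44.2% and 43.7% in mutant vehicle libraries. It was 43.0%, 42.4%, 43.7%, 45.6% and 44.7% in wild-type TAK-418 and 45.3%, 45.2% and 43.6% in mutant TAK-418 libraries.

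The 3 treated mutants lie above the 3 vehicle wild types, by 2.12 percentage points in the means, and the exact two-sided permutation p of 0.10 is the smallest that 3 against 3 libraries allow. Adjusted over the 12 tests of both receptors it was 0.50. The nearest libraries of these 2 groups were at 43.43% (wild-type vehicle replicate 1) and 43.63% (mutant TAK-418 replicate 3). How often the shares of other alternative forms separate these groups was not computed. The share of mutants minus wild types under vehicle was 0.016 percentage points (exact p = 1.00). For the drug it was 1.26 in wild types (exact p = 0.214) and 2.11 in mutants (exact p = 0.30). The summed level of 8 astrocyte markers, the cell type that makes much of the truncated form, was 907 to 998 in vehicle wild types and 896 to 995 in vehicle mutants, and 947 to 1043 and 939 to 949 in the treated wild types and mutants. Its part in the shares was not tested.

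**Figure D3:**
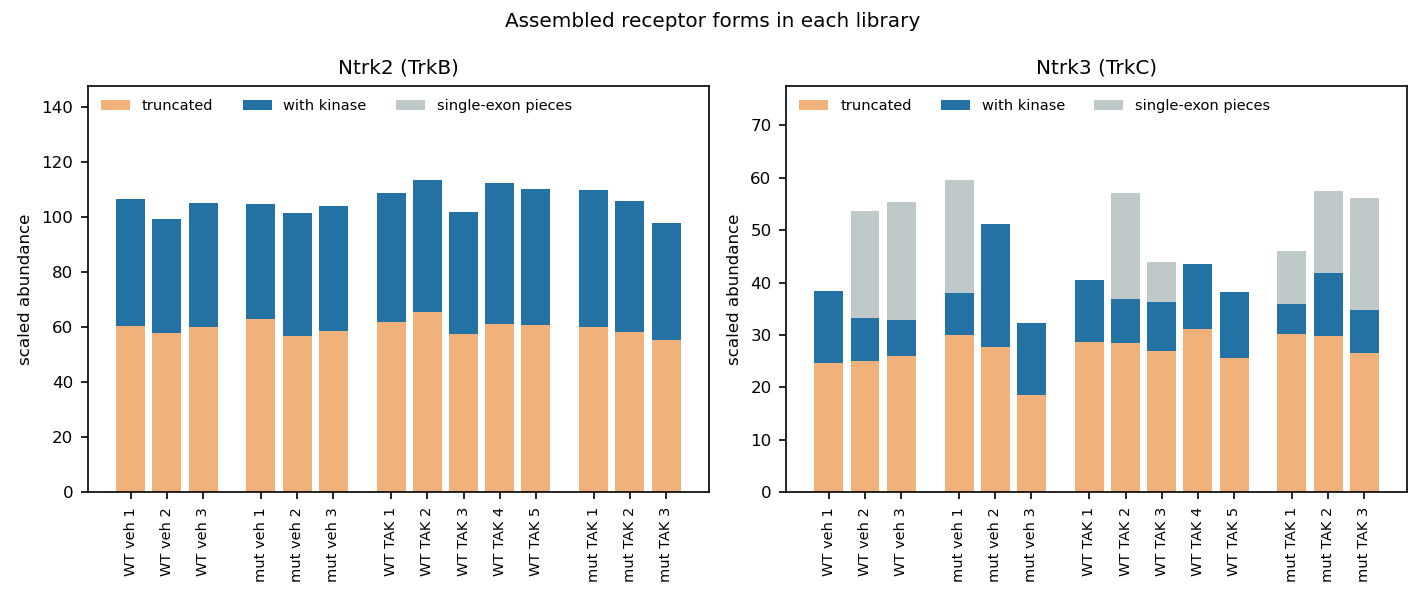
Scaled abundance (linear axes from 0) of the truncated and kinase-encoding forms of Ntrk2 (left) and Ntrk3 (right) in each library, with single-exon pieces shown apart. The pieces lie within the last exon of the Ntrk3 kinase form. WT is wild type, mut is mutant, veh is vehicle and TAK is TAK-418. The Ntrk2 bars are alike in all libraries, while 8 of 14 Ntrk3 bars carry a part from single-exon pieces.

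Ntrk3 (chr7:78175959-78738012, minus strand) encodes TrkC, the receptor of neurotrophin-3. After the exon at chr7:78356027-78356215 the truncated form continues into 2 exons of its own and the kinase form into the exons of the kinase domain. The paths are shown at this junction, with the end of the shared exon in lower case and 60 bases of the truncated (chr7:78304367-78304426) or kinase path (chr7:78260355-78260414) in capitals (GENCODE M21, GRCm38, minus strand).
TrkC truncated form: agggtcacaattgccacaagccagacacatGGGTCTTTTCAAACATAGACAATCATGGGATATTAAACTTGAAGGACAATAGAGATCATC
TrkC kinase form: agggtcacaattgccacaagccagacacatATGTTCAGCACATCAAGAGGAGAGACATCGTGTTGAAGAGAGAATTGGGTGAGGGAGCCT

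Total Ntrk3 was at 38.4, 53.6 and 55.3 scaled units in wild-type vehicle and at 59.6, 51.1 and 32.3 in mutant vehicle libraries. It was at 40.6, 57.0, 44.0, 43.6 and 38.2 in wild-type TAK-418 and at 46.0, 57.4 and 56.2 in mutant TAK-418 libraries. The highest and the lowest of the 14 are both mutant vehicle libraries. Mutants minus wild types, the log2 difference was -0.068 ± 0.22 (SE) under vehicle and 0.25 ± 0.19 under TAK-418. The drug difference was -0.13 ± 0.19 in wild types and 0.19 ± 0.22 in mutants, with an adjusted limma p of 0.859 or more for these 4.

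The last exon was not assembled alike in all libraries. In 8 libraries, 11 single-exon transcripts within the long last exon of the kinase form were listed apart from it, at 7.71 to 22.4 scaled units per library. Totals were 44.0 to 59.6 in these 8 libraries and 32.3 to 51.1 in the 6 without such pieces. Without the pieces the 14 totals were 32.3 to 51.1. The part of the pieces in the spread was not tested. With multi-exon transcripts alone all 4 differences changed sign, to 0.19, -0.059, 0.16 and -0.087 in the order above, so no direction is given for Ntrk3.

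With the single-exon pieces left out, the truncated TrkC form was above the kinase form in 14 of 14 libraries, at 18.5 to 31.1 against 5.71 to 23.5 scaled units. With the single-exon pieces counted by their longest annotated match, the kinase form was the higher one in 4 libraries. Without the pieces, the kinase share was 35.6%, 24.9% and 20.97% in wild-type vehicle and 21.2%, 45.9% and 42.8% in mutant vehicle libraries. It was 29.2%, 22.7%, 25.8%, 28.6% and 32.8% in wild-type TAK-418 and 15.9%, 28.6% and 23.4% in mutant TAK-418 libraries. The mutant vehicle libraries thus hold both the 2 highest shares and 1 of the lower ones. The mean share of mutants minus wild types was 9.49 percentage points under vehicle (exact p = 0.30) and -5.22 under TAK-418 (exact p = 0.196). For the drug it was 0.683 in wild types (exact p = 0.875) and -14.0 in mutants (exact p = 0.30). All were adjusted to 0.50 or more over the 12 tests. These shares were 15.9% to 28.57% in the 8 libraries that have single-exon pieces and 28.65% to 45.9% in the 6 that have none. All treated mutants have pieces, and of the vehicle mutants only replicate 1 does. The part of assembly in the differences of the share was not tested.

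Without the pieces the median kinase share was 43.6% for TrkB and 27.2% for TrkC. With the pieces counted, TrkC shares were 28.6% to 53.4% with a median of 44.4%, so no order of the receptors is given. With abundance times length as the weight the medians were 49.2% and 37.5%, and TrkC shares were 22.1% to 46.2% in the 8 libraries with single-exon pieces and 65.0% to 74.6% in the 6 without them. In 5 libraries, 8 of 24 truncated Ntrk3 transcripts lacked the exon at chr7:78304292-78304426.

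Some kinase-form transcripts of Ntrk3 held inserts known to interrupt the TrkC kinase domain. They are shown because they alter the kinase itself: a 42-base exon (chr7:78204103-78204144), assembled in 4 libraries, and a 75-base exon (chr7:78229487-78229561), assembled in 6 (both minus strand).
TrkC 42-base insert: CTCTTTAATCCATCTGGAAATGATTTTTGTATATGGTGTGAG
TrkC 75-base insert: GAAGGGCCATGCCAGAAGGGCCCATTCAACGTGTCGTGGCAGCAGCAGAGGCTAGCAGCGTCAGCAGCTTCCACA
Either insert was found in 8 libraries, at 6.69% to 75.1% of the kinase form, and in no kinase transcript of the other 6. The 8 come from all 4 groups: 3 vehicle wild types, 2 vehicle mutants, 1 treated wild type and 2 treated mutants.

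Ngfr (chr11:95568818-95587735, minus strand) encodes p75, the receptor that binds all neurotrophins and their precursors. It was listed at 0.521, 0 and 0.765 scaled units in wild-type vehicle and at 1.63, 0.402 and 0.743 in mutant vehicle libraries. It was listed at 0.506, 0.539, 0.434, 0.319 and 0 in wild-type TAK-418 and at 0.562, 0 and 0 in mutant TAK-418 libraries. A value of 0 says that no transcript was assembled. The 3 mutant vehicle libraries all have a transcript, and 2 of 3 treated mutant libraries have none, although the ranges overlap.

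The log2 difference of the drug in mutants was -0.73 ± 0.30 (SE; 95% interval -1.40 to -0.067), with an unadjusted limma p of 0.034 and an adjusted p of 1.00. It depends on the pseudocount of 0.9, since 2 of the 3 treated libraries are at 0. It also holds the highest Ngfr value, that of mutant vehicle replicate 1, which is the sum of 2 partial transcripts. These covered 805 and 259 bases, at 0.617 and 0.766 before scaling, and the part of this split in the difference was not tested. Mutants minus wild types, the difference was 0.45 ± 0.30 under vehicle and -0.23 ± 0.27 under TAK-418, and that of the drug in wild types was -0.050 ± 0.27. Only wild-type TAK-418 replicate 1, the deepest library, held a transcript with all 6 annotated exons, and the 11 assembled transcripts covered 173 to 2608 bases.

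The 4 libraries with the highest choroid plexus sums, 6520, 5087, 923 and 618, had Ngfr at 0.765, 1.63, 0.743 and 0.562, which are its 4 highest values. In the other 10 libraries the sums were 19.0 to 48.9. The meningeal fibroblast sum of 8 markers, 1 of which (Foxc1) was at 0 throughout, was highest in the library of mutant vehicle replicate 1 (110), then in that of wild-type vehicle replicate 3 (101), and 56.6 to 78.8 in the other 12. Without these 2 libraries the Ngfr difference of the drug in mutants was -0.47 and that of the drug in wild types changed sign to 0.14. The part of either tissue in the Ngfr values was not tested. In the authors' deposited tables Ngfr was at 0.251 FPKM in wild-type vehicle, 0.374 in mutant vehicle and 0.266 in wild-type TAK-418, and the last pair had p = 0.0376 and q = 0.695. Mutant TAK-418 was at 0.293 FPKM where set against wild-type TAK-418 (log2 fold change 0.13). It was at 0.294 where set against wild-type vehicle (0.22). The assembled values gave the opposite sign for both, at -0.23 and -0.28.

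**Figure D4:**
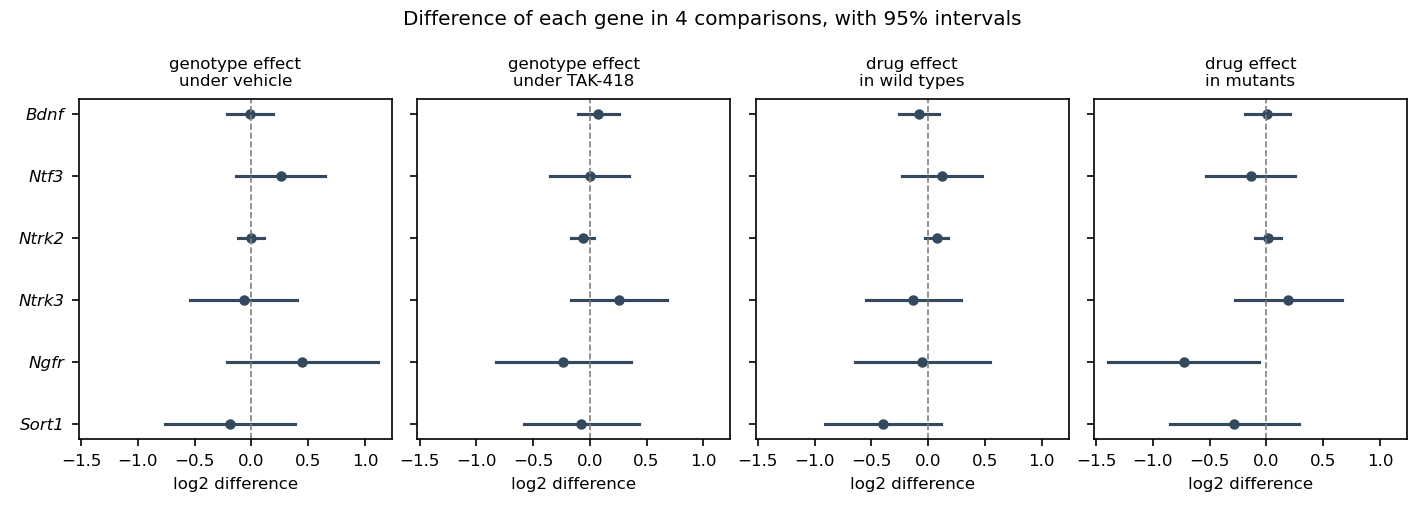
Log2 difference of each gene in 4 comparisons (points) with 95% intervals from limma (lines); genotype differences are mutant minus wild type and drug differences are TAK-418 minus vehicle. Of the 24 intervals, 1 excludes 0 (Ngfr, drug effect in mutants, unadjusted), and those of Ntrk2 are the narrowest.

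Sort1 (chr3:108284082-108361511, plus strand) encodes sortilin. Its transcripts differ by an alternative exon of 99 bases near the 3' end of the coding region (chr3:108355472-108355570), whose skipping is known to depend on the RNA-binding protein TDP-43. The exon is shown in capitals because the 2 forms of Sort1 differ by it, with 15 bases of the exon on each side in lower case (GENCODE M21, GRCm38).
Sort1 alternative exon: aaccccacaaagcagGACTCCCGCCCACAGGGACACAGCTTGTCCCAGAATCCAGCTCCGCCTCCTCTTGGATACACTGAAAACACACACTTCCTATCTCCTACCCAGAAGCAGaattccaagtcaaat

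Total Sort1 was at 137, 141 and 175 scaled units in wild-type vehicle and at 126, 127 and 142 in mutant vehicle libraries. It was at 86.4, 77.9, 142, 141 and 139 in wild-type TAK-418 and at 76.1, 130.1 and 127 in mutant TAK-418 libraries. The 3 low values are all in treated libraries, and the other 5 treated libraries lie between 127 and 142, within or near the range of the vehicle libraries. The log2 difference of the drug was -0.40 ± 0.23 (SE; 95% interval -0.91 to 0.11, limma adjusted p = 0.667) in wild types and -0.28 ± 0.26 in mutants. Mutants minus wild types, the difference was -0.19 ± 0.26 under vehicle and -0.073 ± 0.23 under TAK-418. Treated mutants lay below vehicle wild types without overlap, at a log2 difference of -0.47 ± 0.26 (limma adjusted p = 0.958), a comparison in which 0.00604% of genes were called. The groups of this comparison did not overlap, in either direction, for 9.52% of the 16569 tested genes.

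The 3 low libraries were also assembled differently. Mutant TAK-418 replicate 1 and wild-type TAK-418 replicate 2, at 76.1 and 77.9, each had 1 Sort1 transcript. In wild-type TAK-418 replicate 1 all 86.4 units were in transcripts joined to the neighbouring gene Psma5, a proteasome subunit, and Psma5 itself was listed at 0. The highest library, wild-type vehicle replicate 3, had 4 transcripts, 49.6 units of it in forms with an extra 3' exon. The part of assembly in these values was not tested.

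In the authors' deposited tables Sort1 stands mainly in 1 locus together with Psma5 and RP23-27B23.5. That locus was at 144.5 to 155.3 FPKM, with a log2 fold change between -0.094 and -0.066 in the 4 tables and a q of 0.915 or more. None of the 6 genes passed q under 0.05 in the authors' deposited tables. The share of tested loci called there was 0.224% for mutant over wild-type vehicle, 0.218% for mutant over wild-type TAK-418, 0.324% for mutant TAK-418 over wild-type vehicle and 0.611% for mutant vehicle over wild-type TAK-418.

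The form of Sort1 with the 99-base exon was assembled in 12 of 14 libraries, at 5.28% to 14.6% of Sort1. It was 7.54%, 6.85% and 5.28% in wild-type vehicle and 10.3%, 10.1% and 9.53% in mutant vehicle libraries. It was 14.6%, 0%, 9.98%, 11.5% and 10.6% in wild-type TAK-418 and 0%, 9.29% and 7.95% in mutant TAK-418 libraries. The 2 libraries at 0% are the 2 with a single Sort1 transcript. The 3 mutant vehicle libraries lie above the 3 wild-type vehicle libraries, also in scaled units (12.9 to 13.5 against 9.23 to 10.3). The shares were compared after their values had been seen. The exact two-sided permutation p was 0.10, the smallest that 3 against 3 libraries allow (adjusted 0.30). How often the shares of other alternative exons separate these groups was not computed.

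**Figure D5:**
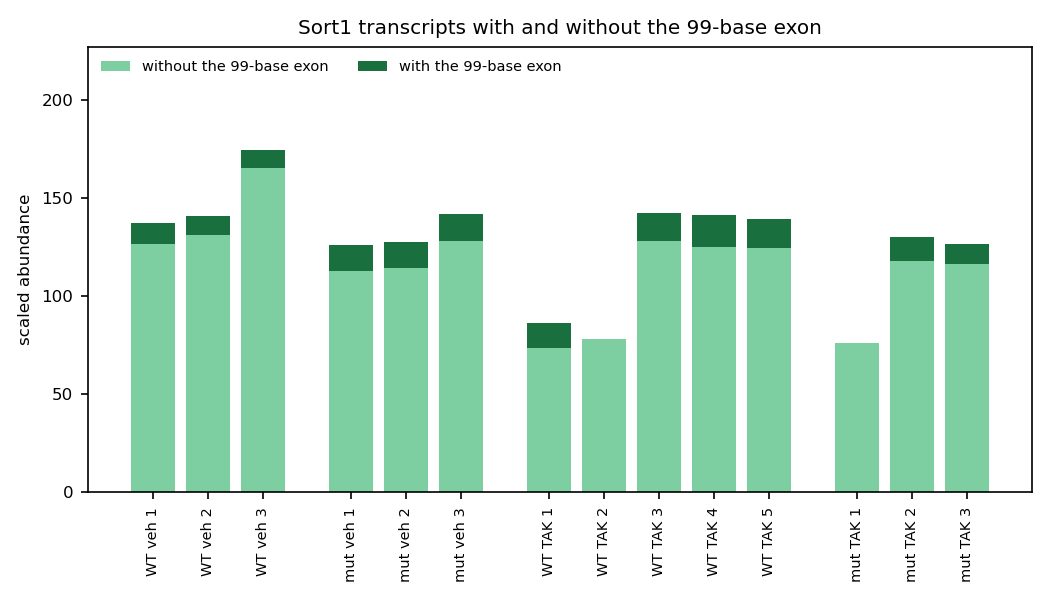
Sort1 scaled abundance (linear axis from 0) in each library, split by the presence of the 99-base exon; WT is wild type, mut is mutant, veh is vehicle and TAK is TAK-418. The dark part, with the exon, is missing in mut TAK 1 and WT TAK 2, whose bars are the lowest at 76.1 and 77.9.

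Ntf5, the other TrkB ligand, was listed in 3 libraries at no more than 0.20 scaled units. None of 7 further family members, among them Ntf5 and the sortilin relatives Sorcs1, Sorcs2, Sorcs3 and Sorl1, passed the limma threshold in any comparison, in either direction, and the smallest adjusted p was 0.601. Sorl1, which also sorts neurotrophin receptors, had a log2 difference of -0.087 ± 0.050 (SE) for the genotype under TAK-418.

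Of 14 genes for cleavage and release of the precursors, 12 could be tested and none passed in either direction (smallest adjusted p 0.422). Pcsk1, a prohormone convertase, was at 8.27 ± 0.309 (SD, n = 3) in wild-type and 7.18 ± 0.446 (SD, n = 3) in mutant vehicle libraries (log2 difference -0.18 ± 0.060 SE, limma adjusted p = 0.724).

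None of 28 Trk adaptors and downstream kinases passed in either direction (smallest adjusted p 0.456). Shc3, an adaptor of neurons, was at 10.5 ± 3.70 (SD, n = 3) in mutant vehicle and 15.8 ± 3.89 (SD, n = 5) in wild-type TAK-418 libraries (limma adjusted p = 0.456).

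None of 15 partners and effectors of p75 passed either (smallest adjusted p 0.534). Zfp369 was at 9.36 ± 1.53 (SD, n = 3) in vehicle mutants and 7.66 ± 0.217 (SD, n = 3) in treated mutants. Ndn, or necdin, was at 2.06 to 3.4 scaled units in 11 libraries and at 97.8, 86.9 and 102.3 in mutant vehicle replicate 3 and mutant TAK-418 replicates 1 and 2 (limma adjusted p = 0.926 for the genotype under TAK-418). It was a single-exon transcript in each of the 14 libraries, of 1639 to 1654 bases in the 11 low ones. In the high ones it was shorter, at 1530, 1528 and 1519 bases in the order above. The part of assembly in the Ndn values was not tested.

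The last list holds 16 genes that, like Bdnf, are induced by neuronal activity. None passed in any comparison in either direction (limma, smallest adjusted p 0.310). Under vehicle 2 of 16 were higher in mutants, with a median log2 difference of -0.33 against 0 over all genes, and 5 had an unadjusted p under 0.05, as had 5.45% of all genes. In wild types 4 of 16 were higher with the drug (median -0.22 against -0.0035 over all genes), and 5 had an unadjusted p under 0.05, as had 8.44% of all genes. Nr4a1, an immediate early transcription factor, was at 30.2 ± 4.56 (SD, n = 3) in wild-type vehicle and 21.9 ± 2.65 (SD, n = 5) in wild-type TAK-418 libraries, a log2 difference of -0.44 ± 0.11 (SE). Npas4, an activity-dependent factor of neurons, was at 4.86 ± 0.320 (SD, n = 3) and 3.05 ± 0.349 (SD, n = 5), a difference of -0.55 ± 0.15 (SE). The vehicle genotype comparison and the drug comparison in wild types share the wild-type vehicle libraries, and Bdnf differed by -0.011 and -0.079 in them. Of the 16, 11 were higher in mutants under TAK-418 (median 0.082) and 13 with the drug in mutants (0.095). The interaction was above 0 for 15 (median 0.37 against 0.0046 over all genes). In it 5 had an unadjusted limma p under 0.05, as had 4.44% of all genes. Treated mutants were above vehicle wild types for 5 (median -0.24), and vehicle mutants above treated wild types for 4 (-0.085).

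Across the 14 libraries, the genes whose log2 levels were most like each member were found among 12976 genes by Pearson's r. Groups and library differences are pooled in these values, so they describe the libraries only. For Bdnf they were Edn3 (r = 0.90, Spearman's rho = 0.93), Dcdc2a (0.87 and 0.80) and Naf1 (0.85 and 0.86). For Ntf3 they were Rps6ka4 (0.83 and 0.85), Birc2 (0.80 and 0.65) and Snhg10 (0.79 and 0.79). For Ntrk2 they were Mrtfb (0.95 and 0.96), St3gal2 (0.91 and 0.90) and Plxna4 (0.88 and 0.83). For Ntrk3 they were Nfe2l2 (0.83 and 0.85), Zfand2b (0.83 and 0.81) and Depdc7 (0.82 and 0.82). For Sort1 they were Pllp (0.94 and 0.72), Wnk3 (0.87 and 0.56) and Rilpl1 (0.87 and 0.43), and by Spearman's rho none of these 3 was among its top 3. Between the members themselves r lay between -0.48 (Ntrk2 and Sort1) and 0.42 (Bdnf and Sort1) over the 10 pairs of the 5 genes listed in all libraries.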

How the data were processed

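Per the file headers, the authors assembled the transcripts of each library with CLASS 2.1.7. Per the submitters' processing notes, FastQC, TopHat2 2.1.0 and genome build mm10 were used. The deposited abundance score per transcript is per length and library total, as worked out from its values. Among single-exon transcripts with low values, 93.7% to 98.5% fell on whole steps (tolerance 0.1). The step was searched for so that this share is high, and it gives the relative depth. Per the file headers, the 4 deposited comparison tables (81411 loci) hold 1 FPKM value per group, a log2 fold change, and a p-value and q-value, with no spread between libraries. The closest group among the libraries was the named one for all value columns.

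Transcripts were assigned to GENCODE M21 genes (GRCm38, 55450 genes) by shared introns, or at least 50% overlap for single-exon ones. Abundances were summed, scaled by the median of ratios over 13273 genes, and tested as log2(value + 0.9) where at least 3 libraries had a value. All 14 libraries entered 1 fit with limma 3.58.1 (R 4.3.3, lmFit and eBayes with trend), with Benjamini-Hochberg adjustment at 0.05. The fit was tested on simulated data. A log2 difference understates the change of low genes.

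A kinase-form transcript holds a kinase-specific intron, and a truncated one ends in a truncated form's last exon. Shares were tested with 12 exact permutation tests (two-sided). Per-group values of 0 mean that no transcript was assembled. The members and lists were chosen with earlier results of these data known. All members were named in each comparison, with 2 genes per list by the smallest unadjusted p, 3 most similar genes per member with a median of at least 1, Kmt2d and Kdm1a. Some genes that this rule names are not reported here. Reads of Psma5 and Sort1 may be shared. Promoter sequences were matched by symbol for 4 of 6 members. Which of the 2 library kits named in the labels made which library is not given in the sources used here. Alternatives changed the scaling, pseudocount, filter, summary of transcripts, trend, groups in the fit and sex term, or left out libraries. Python 3.11.15 was used for the rest.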

Additional observations from a re-analysis of the deposited data

Results flagged for a closer look

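Of 13 measures examined in the wild-type TAK-418 group of 5 libraries, 1 had a library far from the others. The relative depth of replicate 1 was 167 M against 56.0 M for the next, a gap of 0.879 of the range. No level, receptor share or first-exon share of the members met this rule. Chance meets it in about 1 in 20 groups for each single measure, and 13 measures were examined here. The Sort1 transcripts of this library joined to Psma5 and its full Ngfr transcript are described above, and the part of depth in them was not tested.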

How the results depend on the processing

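No member passed the threshold in any of 181 results, each being 1 of the 7 comparisons under 1 alternative setting (limma, smallest adjusted p 0.382). Ngfr, listed at 0 in some libraries, was not tested in the setting that needs a value in every library. Some differences changed sign, among them those of Ntrk3 for the genotype under TAK-418 (0.25) and the drug in mutants (0.19), and the cause was not tested. Log2 differences are given in the order genotype under vehicle, genotype under TAK-418, drug in wild types, drug in mutants, where each changed. With abundance times length, Bdnf was at 0.028 (genotype under vehicle) and -0.023 (drug in mutants), Ntf3 at 0.032 and Ntrk2 at 0.0036. Ntrk3 was then at 0.20, -0.29 and -0.51, and Ngfr at 0.066. With the highest transcript only, Bdnf was at -0.017, Ntf3 at 0.083, Ntrk2 at 0.032 and 0.014, Ntrk3 at 0.070 and 0.38, and Sort1 at 0.016. With multi-exon transcripts only, Ntrk3 was at 0.19, -0.059, 0.16 and -0.087, and Ntf3 at 3.5e-05. Without scaling, Bdnf was at -0.013. With sex as a term, Bdnf was at 0.026 and Ntrk2 at 0.015. Sex was read from Xist and Y-linked genes, and 6 libraries, from every group, held Xist. Among the vehicle libraries these were wild-type replicates 1 and 3 and mutant replicate 1. With a pseudocount of 0.09, Ngfr was at 0.048. Without the 2 choroid-rich libraries, a setting chosen after seeing the data, Ngfr was at 0.14.

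Leaving out 1 library at a time gave these ranges where a sign changed. For the genotype under vehicle they were -0.054 to 0.022 for Bdnf, -0.034 to 0.018 for Ntrk2 and -0.25 to 0.18 for Ntrk3. For the genotype under TAK-418 they were -0.020 to 0.17 for Bdnf, -0.064 to 0.069 for Ntf3 and -0.21 to 0.18 for Sort1. For the drug in wild types they were -0.0093 to 0.20 for Ntf3 and -0.31 to 0.14 for Ngfr. For the drug in mutants they were -0.088 to 0.099 for Bdnf, -0.32 to 0.036 for Ntf3, -0.020 to 0.061 for Ntrk2 and -0.059 to 0.37 for Ntrk3. The kinase share of Ntrk2 ranged from -0.747 to 1.3 percentage points for the genotype under vehicle and from -2.01 to 0.038 for vehicle mutants against treated wild types. That of Ntrk3 ranged from -2.41 to 4.90 for the drug in wild types. With single-exon pieces counted by their longest annotated match, the Ntrk3 differences were -1.20 (genotype under vehicle), 9.06 (genotype under TAK-418) and -11.4 (drug in wild types). The Sort1 exon share ranged from -2.58 to 2.06 for treated mutants and from -1.68 to 1.98 for vehicle mutants, each against the other genotype's other treatment. Without the 2 libraries that lack the exon these were 2.06 and -1.68.

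No paired analysis was possible because the labels give no replicate numbers. Scaling by library total was not run apart from no scaling, since the deposited values are already per library total. Ngfr had a full transcript in the deepest library only, and the next deepest (60.1 M) listed it at 0. Groups of 3 cannot give an exact p under 0.10.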

Other observations

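The exon share of Sort1 was compared after its values had been seen, with exact two-sided permutation tests adjusted over 6 comparisons. With all libraries, mutants exceeded wild types by 3.44 percentage points under vehicle, without overlap (exact p = 0.10, the smallest that 3 against 3 libraries allow, adjusted 0.30). Under TAK-418 the difference was -3.59 (exact p = 0.375), with overlap. The drug difference was 2.78 in wild types (exact p = 0.446), with overlap, and -4.25 in mutants (exact p = 0.10, adjusted 0.30), without overlap.

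These values include 2 treated libraries at 0%. Leaving those out selects libraries by the measure itself, so the values without them are a description: -3.05 for the genotype under TAK-418, 5.12 for the drug in wild types and -1.38 for the drug in mutants. None of the differences over all libraries passed the adjusted threshold. With the libraries at hand, 1 comparison at its smallest possible exact p could not have passed it alone, so this outcome says little about the shares.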
